A study of Carica papaya with 12 samples.

Results

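SPL/NZZ (evm.model.supercontig_12.16) is the papaya gene model that the study's annotation names as the transcription factor SPOROCYTELESS/NOZZLE. It was chosen by that name, as 1 gene of 27689 gene models, of which 19339 had enough counts to be tested. RNA was sequenced from ground flower buds of 3 sex types in 2 size classes, with 2 libraries in each of 6 groups. The female and male plants were 'AU9', whereas all hermaphrodite plants were 'SunUp'. A difference that involves hermaphrodites is therefore one of cultivar as well as of sex, and these cannot be told apart. Buds of 1–6 mm were labelled pre-meiosis and buds of 7–12 mm post-meiosis. These classes were set by size, and the paper describes hermaphrodite buds as larger than male buds. Buds of equal size may therefore differ in stage between the sexes. This was not tested, and such a difference cannot be told apart from one of sex. All plants were grown at the same research station. The libraries are of whole buds, and none was made from anthers or ovules alone.

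In Arabidopsis, SPL/NZZ is a nuclear regulator of transcription needed for the first sporogenous cells, in the anther as well as in the ovule. It is switched on there by AGAMOUS, and without it the archesporial cells of the anther form neither pollen mother cells nor a normal tapetum, the cell layer that feeds the developing pollen. The receptor kinase EMS1/EXS and its secreted ligand TPD1 then specify the tapetum, and a chain of transcription factors (DYT1, TDF1, AMS and MS1) directs its development. The ovule role of the gene in Arabidopsis is in the nucellus, where the megaspore mother cell forms.

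The SPL/NZZ model lies on the plus strand of sequence scf7180000007875 of the PacBio papaya assembly used for the counts, from position 225482 to 226874. It has 3 exons of 591, 209 and 254 bases, which sum to 1054 bases, and introns of 162 and 177 bases. None of the 131 gene models on that sequence overlaps it on either strand. Reads were counted by strand over these exons, so its counts are not shared with another placed model at the same position.

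The total assigned to gene models was 12704714 to 16564137 counts for libraries of replicate 1, and lower, 4520811 to 8554135, for those of replicate 2. By the study's quality summary, raw read numbers were similar in both, and a smaller share of reads was assigned in replicate 2. The replicate number is also a sequencing batch, with single-end HiSeq2000 reads in replicate 1 and paired-end HiSeq2500 reads in replicate 2. The level of a gene is its number of counts per 1000000 counts of the normalized library total (CPM). RPKM, which is CPM per kilobase of exon, is used where genes are set beside each other. The class B organ identity genes PI and AP3, which mark petals and stamens, had counts in all 12 libraries. The tapetum genes DYT, TDF1, AMS and CpMS1 were at 0 to 12 counts in each female library.

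SPL/NZZ was read in buds with stamens and was near 0 in female buds. At 1–6 mm, male buds gave 190 and 84 counts in replicates 1 and 2, or 10.5 and 11.8 CPM. Hermaphrodite buds of that size gave 159 and 45 counts, or 10.3 and 10.1 CPM. Female buds gave 0 counts and 1 count. The 4 libraries with stamens lay within 10.1 to 11.8 CPM and did not overlap with the female ones. Replicate 2 of both groups with stamens had the most unaligned reads of the 12 libraries, over 15% each.

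At 7–12 mm, male buds gave 30 and 22 counts of SPL/NZZ, or 2.34 and 3.26 CPM. Hermaphrodite buds gave 198 and 45 counts, or 12.4 and 5.66 CPM. Female buds gave 1 count in each library, or 0.0684 and 0.137 CPM. The 3 sexes did not overlap at this size, with hermaphrodites highest and females lowest.

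**Figure D1:**
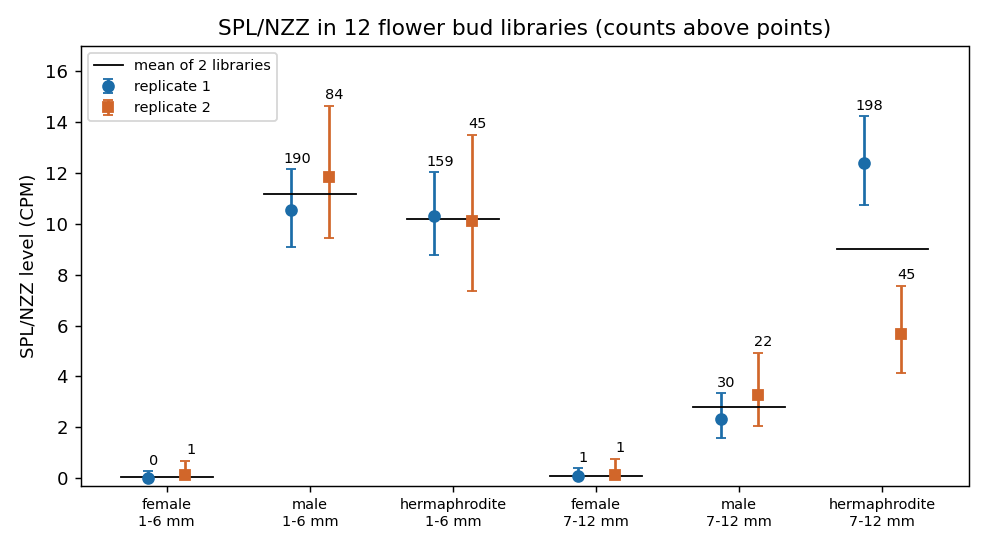
SPL/NZZ level in CPM (vertical axis) in each of the 12 libraries, by sex and bud size. Circles are replicate 1, squares replicate 2, bars are 95% counting intervals, black lines the mean of 2 libraries and the numbers above the points the counts; female libraries hold 0 or 1 count, larger male buds 22 and 30, and the replicates of larger hermaphrodite buds, 198 and 45 counts, stand apart.

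The order of the group means was male 1–6 mm (11.2 CPM ± 0.917), hermaphrodite 1–6 mm (10.2 ± 0.146), hermaphrodite 7–12 mm (9.02 ± 4.76), male 7–12 mm (2.80 ± 0.652), female 7–12 mm (0.103 ± 0.0484) and female 1–6 mm (0.0614 ± 0.0869; SD, n = 2 libraries each). By the test described next, neighbours among the first 3 groups were not called different, and neither were the 2 female groups. The steps from larger hermaphrodite to larger male buds and from larger male to larger female buds passed that test. In RPKM the 4 groups with stamens had means of 10.6, 9.68, 8.56 and 2.65 in the same order.

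Among the tested genes, SPL/NZZ was expressed at a low level. By RPKM it lay at the 28.1 to 29.6 percentile of tested genes in the small male and hermaphrodite buds. In larger male buds it lay at the 10.7 to 11.2 percentile. In larger hermaphrodite buds it lay at the 32.8 percentile in replicate 1 and the 18.2 percentile in replicate 2.

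Differences between the sexes were tested with edgeR's quasi-likelihood test over all 19339 genes, with calls made where the Benjamini-Hochberg adjusted p was under 0.05 and the change over 2-fold. SPL/NZZ was higher in males than in females at 1–6 mm, with a fitted log2 fold change of 7.57 (standard error 0.739, edgeR adjusted p = 6.057e-05). In this comparison 12.8% of all tested genes were called, 5.86% as higher and 6.95% as lower in males, and 82 genes had a larger rise. SPL/NZZ was also higher in hermaphrodites than in females of that size, by 7.44 on the log2 scale (standard error 0.739, edgeR adjusted p = 8.106e-05), where 11.7% of genes were called, 5.15% as higher and 6.52% as lower. The libraries are of bulk tissue, in which fewer cells of a type and less RNA per cell cannot be told apart.

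Because small female buds held 1 count in all, the size of these differences is better read from the counts. Males had 239 times the female SPL/NZZ level, with a 95% counting interval of 42.6 to 9487, and hermaphrodites had 225 times, with an interval of 40.0 to 8939. At 7–12 mm, where female buds held 2 counts, the ratio was 29.1 in males (7.66 to 247) and 111 in hermaphrodites (30.5 to 924). The counts of both libraries were added for these intervals, which cover counting error only.

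Both differences from females were called at 7–12 mm too. The fitted log2 fold change was 4.73 in males (standard error 0.687, edgeR adjusted p = 0.0005595), and 16.5% of tested genes were called there, 8.79% as higher and 7.69% as lower. It was 6.44 in hermaphrodites (standard error 0.685, edgeR adjusted p = 0.0001059), against 15.3% of genes called, 7.74% as higher and 7.53% as lower. In each of the 4 comparisons with females, both libraries with stamens were above both female libraries.

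The 4 female libraries together held 3 SPL/NZZ counts among 45725796 counts. The limit that a count of 0 allows, 3 counts, corresponds to 0.205 to 0.411 CPM in these libraries. The upper 95% counting limit was 0.254 CPM over the small and 0.330 CPM over the larger female buds. These limits are the highest levels that the counts allow, and single reads at 0.0684 to 0.137 CPM lay under them. These counts do not show that the transcript was absent. The same libraries held 27 counts of AMS isoform 1, 12 of TDF1, 5 of DYT and 4 of CpMMD1. In CPM of summed counts, the female level was 0.783% of that in the libraries with stamens for SPL/NZZ, 0.0969% for AMS isoform 1, 0.0645% for TDF1 and 2.60% for DYT.

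Males and hermaphrodites of 1–6 mm did not differ detectably in SPL/NZZ. The fitted log2 difference was 0.13 with a 95% interval of -0.91 to 1.17 (edgeR adjusted p = 0.9365), and the summed counts gave a ratio of 1.06 (counting interval 0.883 to 1.28). Both replicate batches gave a similar ratio, 1.02 in replicate 1 and 1.17 in replicate 2. Of all tested genes, 4.59% were called in this comparison.

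At 7–12 mm, SPL/NZZ was lower in males than in hermaphrodites. The fitted log2 fold change was -1.70 with a 95% interval of -2.79 to -0.61 (standard error 0.487, edgeR adjusted p = 0.03607), and 8.58% of tested genes were called, 4.28% as higher and 4.30% as lower in males. In summed counts hermaphrodites had 3.83 times the male level (counting interval 2.83 to 5.27). Within replicate 1 the ratio was 5.30, and within replicate 2 it was 1.74 (1.02 to 3.04). The call was lost in 9 of 20 alternative settings, and without replicate 1 of the larger hermaphrodite buds the difference was -1.02 (edgeR adjusted p = 0.306).

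The spread between the larger hermaphrodite libraries was the widest of the groups with stamens. Their counting intervals, 10.7 to 14.24 CPM in replicate 1 and 4.13 to 7.57 CPM in replicate 2, did not overlap. Replicate 1 was likewise above replicate 2 in TPD1 (198 and 35 counts), in CpMMD1 (53 and 11 counts) and in AMS isoform 1 (15941 and 5190 counts). In CPM the replicate 1 level was 2.19 times that of replicate 2 for SPL/NZZ, 2.81 times for TPD1, 2.40 times for CpMMD1 and 1.53 times for AMS isoform 1. TDF1 had 1.11 times and CpMS1 0.950 times the level. Beyond the fit without replicate 1 of the larger hermaphrodite buds, given above, the part of this split in the sex difference was not tested.

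**Figure D2:**
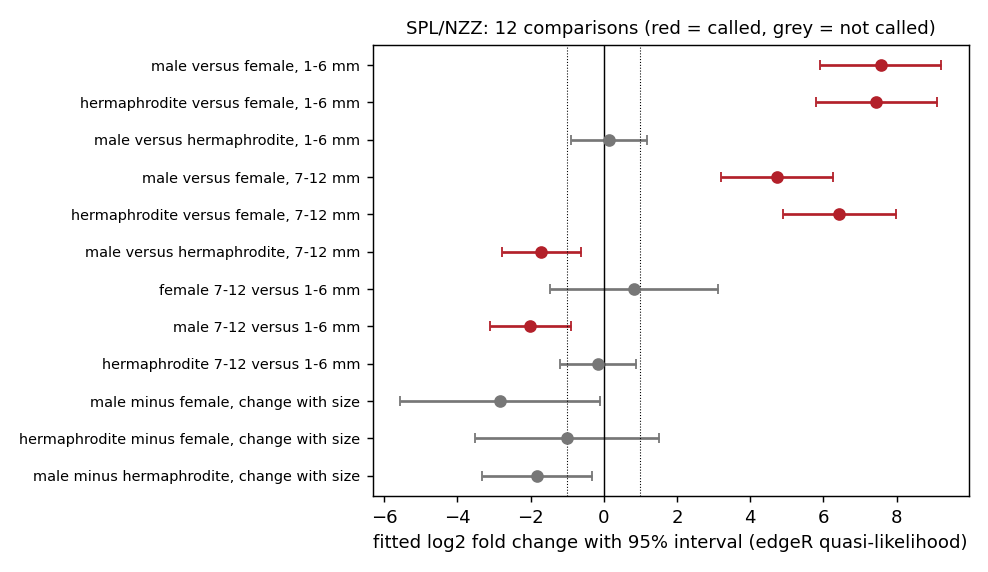
Fitted log2 fold change of SPL/NZZ (horizontal axis) in the 12 comparisons, with approximate 95% intervals from the edgeR quasi-likelihood fit; dotted lines mark a 2-fold change, red points were called and grey points were not. The 4 comparisons with females lie between 4.73 and 7.57, and the 2 calls among buds with stamens lie at -1.70 and -2.0.

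With bud size, SPL/NZZ fell in males. It went from 10.5 and 11.8 CPM at 1–6 mm to 2.34 and 3.26 CPM at 7–12 mm, without overlap. The fitted log2 fold change was -2.0 with a 95% interval of -3.10 to -0.91 (standard error 0.490, edgeR adjusted p = 0.02895), and 5.69% of tested genes were called, 2.92% as higher and 2.77% as lower in larger male buds. The small buds had 4.11 times the level of the larger ones in summed counts (3.04 to 5.64), 4.51 times within replicate 1 and 3.63 times within replicate 2. The call was lost when any 1 of the 4 male libraries was left out, with changes of -2.27 to -1.78. It was also lost without replicate 2 of the small male and small hermaphrodite buds, which had the most unaligned reads (-1.92).

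In hermaphrodites no change of SPL/NZZ with size was called. The fitted log2 fold change was -0.17 with a 95% interval of -1.21 to 0.87 (edgeR adjusted p = 1), and 3.05% of tested genes were called, 2.07% as higher and 0.972% as lower. Larger buds had 1.20 times the level of small buds in replicate 1 and 0.560 times in replicate 2, so the batches went in opposite directions. Females had too few counts for a comparison of sizes, with 2 counts against 1, and 1.94% of tested genes were called between their sizes.

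A fall in one sex and no call in the other is not by itself a difference between them, so that difference was tested as an interaction. For males against hermaphrodites the change with size differed by -1.84 on the log2 scale, with a 95% interval of -3.33 to -0.34. It did not pass the adjustment over all genes (unadjusted p = 0.02147, edgeR adjusted p = 0.334), and 0.512% of tested genes did. It was not called in any of 20 alternative settings either, at -2.29 to -1.15. The adjusted p depended on the setting, and the lowest among the edgeR, DESeq2 and limma alternatives was 0.0544. The interactions of males with females (-2.84, edgeR adjusted p = 0.3067; 5.38% of genes called) and of hermaphrodites with females (-1.0, edgeR adjusted p = 0.8873; 2.39% called) were not called either. These comparisons share libraries, so they are not independent of each other.

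**Figure D3:**
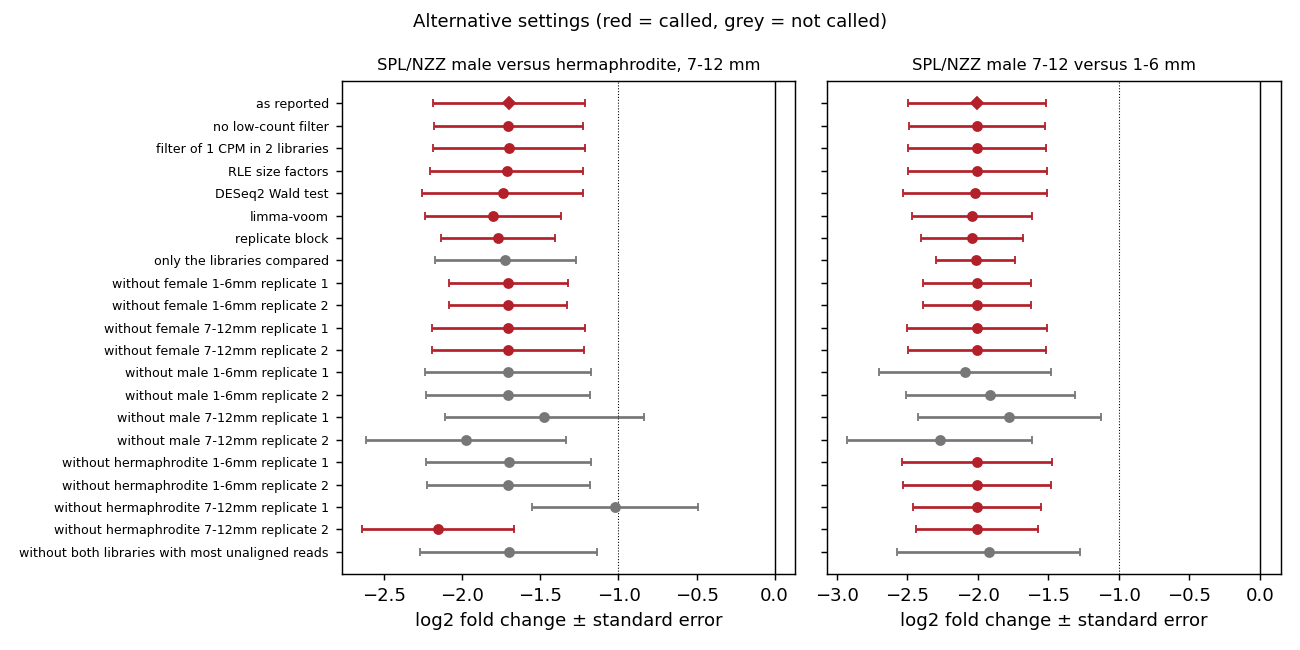
Log2 fold change of SPL/NZZ with its standard error (horizontal axis) under each alternative setting (rows), for larger males against larger hermaphrodites (left) and larger against smaller male buds (right); red points were called, grey points were not, and the diamond is the value as reported. The direction held in all rows, and the value nearest to 0 on the left, -1.02, is the fit without replicate 1 of the larger hermaphrodite buds.

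The other genes of the anther pathway were 14 gene models, of which all were tested. Of these, 12 are the study's sampling of genes known in Arabidopsis to act upstream of MS1. CpMS1 and CpMMD1 were added from the study's tables of genes that differ in these samples, so their direction is no independent evidence. At 1–6 mm, 6 of the 14 were called higher in males than in females and 1 was called lower, beside 5.86% and 6.95% of all tested genes. The median log2 difference was 0.86 against 0.05 over all tested genes. The same numbers, 6 and 1, were called between hermaphrodites and females, beside 5.15% and 6.52%. At 7–12 mm, 9 were called higher and 2 lower in males, beside 8.79% and 7.69% of all tested genes. In hermaphrodites 9 were called higher and 0 lower, beside 7.74% and 7.53%.

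Upstream and beside SPL/NZZ stand the floral organ identity genes. SEP3, a MADS-box partner in the organ identity complexes, was called in none of the 12 comparisons. PI, a class B gene, was higher in males than in females at 7–12 mm by 1.49 on the log2 scale (edgeR adjusted p = 0.0001102). AP3 isoform 1, the other class B gene, was also higher there, by 1.98 (edgeR adjusted p = 4.611e-06). AP3 isoform 1 rose with size in males, by 1.29 (edgeR adjusted p = 0.0003129), while SPL/NZZ fell. AP3 isoform 2 was likewise higher in males than in females at 7–12 mm (1.15, edgeR adjusted p = 2.899e-05). Its change with size in males, 0.88 (edgeR adjusted p = 0.0007325), was under the 2-fold limit and not called. The 2 AP3 models may share reads, since a read with several alignments was counted at every one.

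Among the receptor kinases and the ligand, levels in females were not near 0. TPD1, the secreted ligand, had 5.48 CPM ± 0.447 in small female buds and 6.85 CPM ± 1.52 in small male buds (SD, n = 2). It fell with size in males (log2 fold change -1.70, edgeR adjusted p = 0.04686), and was lower in larger males than in larger hermaphrodites (-2.0, edgeR adjusted p = 0.01579). EMS1/EXS-like, the receptor kinase, fell with size in males (-1.35, edgeR adjusted p = 0.02344) and in hermaphrodites (-1.25, edgeR adjusted p = 0.04592). Both genes fell with size in males, as SPL/NZZ did, and neither was called between small males and small females. RPK2, a receptor-like kinase of the anther wall in Arabidopsis, was lower in males than in females at 1–6 mm (-1.05, edgeR adjusted p = 0.001169). CLV1, a receptor kinase of the shoot meristem, was higher in males than in females at 7–12 mm (1.17, edgeR adjusted p = 0.0009471).

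The tapetum regulators were low in females, as SPL/NZZ was, and differed among themselves with bud size. DYT, the first bHLH factor of the chain, had 90 and 31 counts in small male buds and 26 and 22 in larger ones. In hermaphrodites it had 172 and 32 counts in small buds and 10 and 5 in larger ones, a fall (log2 fold change -3.85, edgeR adjusted p = 0.001066). DYT was higher in larger males than in larger hermaphrodites (2.04, edgeR adjusted p = 0.005547), the opposite direction to SPL/NZZ. TDF1, a MYB factor, had 445 CPM ± 71.9 in small and 288 CPM ± 50.3 in larger male buds, and 287 ± 48.4 and 618 ± 44.2 in hermaphrodites (SD, n = 2). No change of TDF1 with size was called.

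AMS isoform 1, a bHLH factor of the tapetum, was the member whose pattern lay closest to SPL/NZZ over all libraries. Its CPM was 750 ± 107.4 in small and 244 ± 19.1 in larger male buds, and 580 ± 100 and 825 ± 244 in hermaphrodites (SD, n = 2). It was lower in larger males than in larger hermaphrodites (log2 fold change -1.76, edgeR adjusted p = 0.03734), and its change with size in males, -1.62, was not called (edgeR adjusted p = 0.072). AMS isoform 2, a separate gene model, rose with size in males (3.01, edgeR adjusted p = 0.004172) and in hermaphrodites (3.48, edgeR adjusted p = 0.006793). CpMS1, a PHD-finger factor late in tapetum development, had 0 to 2 counts in small hermaphrodite and in female libraries. It rose with size in hermaphrodites (edgeR adjusted p = 0.02795). In small male buds its replicates stood far apart, with 1027 and 43 counts, or 57.0 and 6.06 CPM. Larger male buds had 213 and 171 CPM of CpMS1, and no change with size was called in males. CpMMD1, a PHD gene of male meiosis, was lower in larger males than in larger hermaphrodites (log2 fold change -3.02, edgeR adjusted p = 0.02972), on 2 to 53 counts a library.

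**Figure D4:**
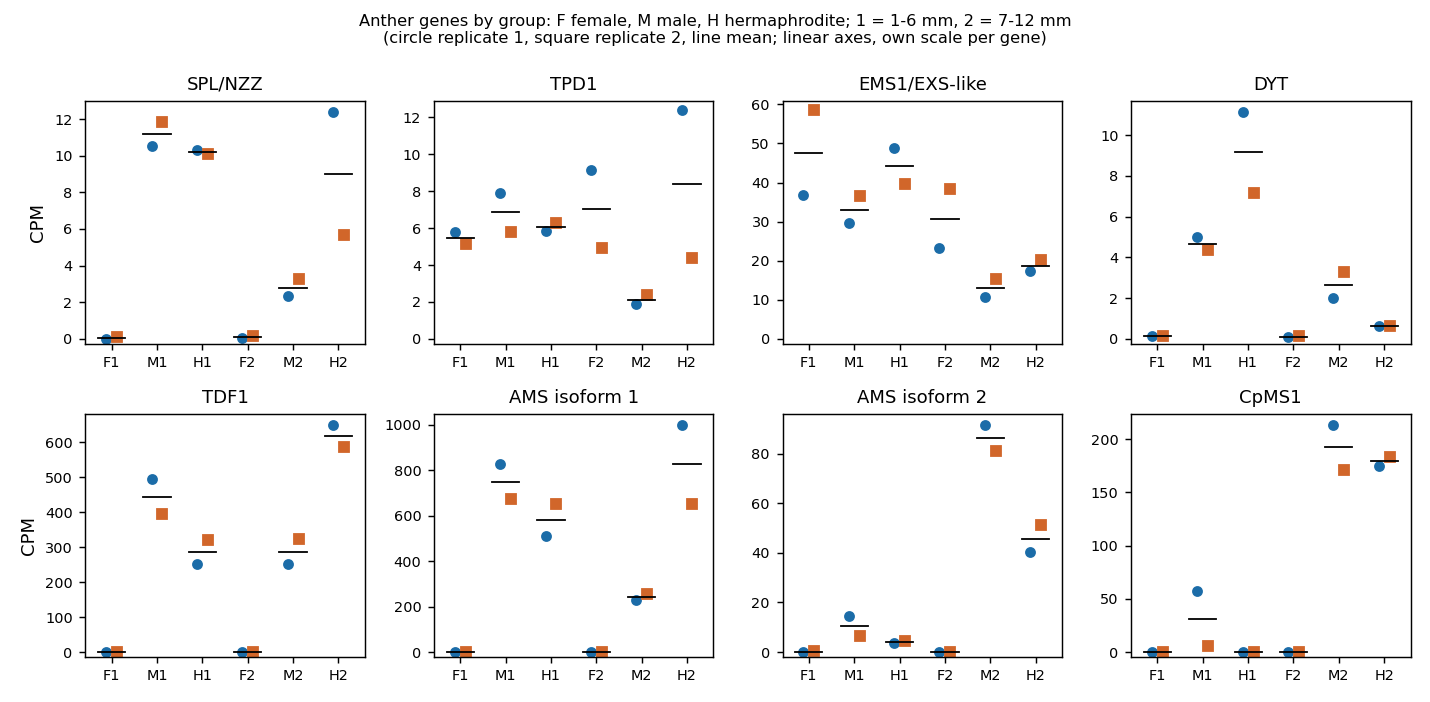
Level in CPM (vertical axis, linear, own scale for each gene) of SPL/NZZ and 7 other anther genes in the 6 groups; F, M and H are female, male and hermaphrodite, 1 and 2 are 1–6 and 7–12 mm, circles and squares are replicates 1 and 2 and lines their means. SPL/NZZ, TPD1 and AMS isoform 1 are lower in larger males than in larger hermaphrodites, whereas AMS isoform 2 is higher in larger than in small buds of both sexes with stamens.

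Between larger males and larger hermaphrodites, 3 of the 14 other pathway genes were called lower in males (TPD1, AMS isoform 1 and CpMMD1) and 1 higher (DYT), beside 4.30% and 4.28% of all tested genes. The count of 4 fell to 2 without either library of small male buds, and to 1 without either library of larger male buds or without replicate 1 of the larger hermaphrodite buds. The median log2 difference of the 14 was -0.08, against 0.02 over all tested genes. With size, 2 were called higher and 2 lower in males, beside 2.92% and 2.77% of all tested genes, and this count of 4 fell to 2 without replicate 2 of the larger male buds. In hermaphrodites 2 were called higher and 2 lower as well, beside 2.07% and 0.972%, and this count of 4 fell to 1 without replicate 1 of the small hermaphrodite buds and to 2 without any other 1 hermaphrodite library or 1 library of larger male buds. In females 0 of the 14 were called, beside 1.94% of all tested genes.

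Per length, SPL/NZZ was far below AMS isoform 1 and TDF1 and nearer to TPD1 and DYT. Its RPKM was 1.55 to 3.61% of that of AMS isoform 1 in the 8 libraries with stamens, a range of 2.33 times from lowest to highest. Beside TPD1 it was 71.4 to 146%, a range of 2.05 times. Beside TDF1 it was 0.991 to 4.37%, beside DYT it was 52.6 to 1127% (median 100.1%), and beside AP3 isoform 1 it was 0.239 to 3.06%, a range of 12.8 times. Among the 14 pathway genes, the RPKM ratio to SPL/NZZ thus varied least for TPD1 and AMS isoform 1.

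Likeness to SPL/NZZ was measured as Pearson's r of log2 CPM (prior count 2) over the libraries, as a description, since libraries of a group and of a batch are not independent. Over 12 libraries, 294 genes had r above 0.9, and in the 5 nearest the female libraries were at 0 to 3.01 CPM. These 5 had r of 0.993 to 0.994, led by evm.model.supercontig_51.96 and evm.model.supercontig_12.229, whose IDs have no gene name in the sources used here. evm.model.supercontig_51.96 had 711 and 289 counts in small and 87 and 55 in larger male buds, 384 and 176 in small and 642 and 188 in larger hermaphrodite buds, and 1 count in all female libraries. The fitted log2 changes with size of the 5 were -3.32 to -2.31 in males and -0.70 to 0.45 in hermaphrodites, given as a description and without a test because the genes were picked for this pattern on these libraries. AMS isoform 1 stood at rank 24 (r = 0.981), TDF1 at rank 71 (r = 0.961), CpMMD1 at rank 363 (r = 0.885) and DYT at rank 706 (r = 0.832).

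Over the 8 libraries with stamens alone, other genes were nearest, and 234 had r above 0.9. The 5 nearest had r of 0.981 to 0.994, led by evm.model.supercontig_35.34 and evm.model.supercontig_1199.2. These 5 were not low in females, where they held 687 to 1994 counts in all, and their fitted changes with size in males were -1.16 to -0.38 on the log2 scale, likewise a description. Of the pathway genes, TPD1 (r = 0.935, rank 105) and AMS isoform 1 (r = 0.904, rank 216) were nearest. TDF1 (r = 0.418) and DYT (r = 0.239) were farther away. AP3 isoform 1 (r = -0.931) ran opposite to SPL/NZZ among buds with stamens, and so did the gene annotated as CRABS CLAW, a carpel gene in Arabidopsis (r = -0.958). The study's description of that model also names an HMG-box domain. In larger buds its level was 59.6 CPM ± 14.5 in females, 39.7 ± 2.28 in males and 26.6 ± 1.87 in hermaphrodites (SD, n = 2). The larger male libraries are the 2 lowest of the 8 points, so the SPL/NZZ values are not spread evenly over their range.

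The 3 nearest gene models on each side of SPL/NZZ lie 2475 to 13571 bases away. Of these 6 models, 3 had enough counts to be tested, and 0 of these were called in the 12 comparisons, in which 0.512 to 16.5% of all tested genes were called, so a count of 0 in 3 is near that share. The nearest tested neighbours, 7239 bases upstream and 5339 bases downstream, held 5834 and 10894 counts in all, against 776 for SPL/NZZ. The upstream one was higher than in females at 7–12 mm in males (log2 fold change 0.60, edgeR adjusted p = 0.001294) and in hermaphrodites (0.71, edgeR adjusted p = 0.0005143), both under the 2-fold limit. The 3 untested models held 1 or 2 counts each and could not be judged.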

How the data were processed

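The authors trimmed reads with Trimmomatic (0.36), aligned them with HISAT2 (2.0.5) to the PacBio assembly and counted them with featureCounts (1.5.2), per the submitters' processing notes. The deposited values are whole-number counts per gene model, neither normalized nor filtered, counted by strand, with a read of several alignments counted at every one. Models are coding sequences placed with GMAP.

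The analysis used edgeR 4.0.16 in R 4.3.3: filterByExpr (minimum count 10), TMM, 1 coefficient per group over 12 libraries, robust quasi-likelihood F tests, Benjamini-Hochberg adjustment over 19339 genes. Standard errors were derived from the F statistic (size of the change divided by its root), and do not measure precision where a group has nearly no counts. Ratios use exact counting intervals on summed counts. With 2 libraries a group, each p-value sets a change against the spread within groups, pooled over 12 libraries and moderated across genes. The 2 libraries of a group also differ in platform, so this spread includes that difference. limma 3.58.1 and DESeq2 1.42.0 served as alternatives, and the steps were tested on simulated data.

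The named genes are SPL/NZZ, the study's anther pathway list with CpMS1 and CpMMD1, and the gene annotated as CRABS CLAW. They also include the 5 genes most like SPL/NZZ over 12 and over 8 libraries, of which 2 each are given by ID. The 3 neighbours on each side complete them. The gene, the lists and the tests were chosen with earlier results of these data known. Same-numbered replicates share a sequencing platform, and deviations from group means correlated between groups with r of 0.734 to 0.839 (15 pairs). The study's methods use no block, so the number enters as an alternative.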

Additional observations from a re-analysis of the deposited data

Results flagged for a closer look

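No interaction of SPL/NZZ itself was called, and with 2 libraries a group no single library could be tested as apart from the rest. The following pathway genes named beside it differed between sexes in their change with bud size, by edgeR's interaction test with adjustment over all genes. AP3 isoform 1 rose more with size in males than in females, by 1.25 on the log2 scale (edgeR adjusted p = 0.00343). For AP3 isoform 2 this difference was 0.87 (edgeR adjusted p = 0.00711), under the 2-fold limit and not called. DYT fell less in males than in hermaphrodites, by 3.02 (edgeR adjusted p = 0.0436), a call lost in 13 of the 20 alternative settings. Interactions of the genes most like SPL/NZZ are not given, since those genes were picked for their pattern on the same libraries.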

How the results depend on the processing

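The 4 calls of SPL/NZZ against females held in all 20 alternatives, with log2 values of 6.38 to 9.98 and 6.25 to 9.85 at 1–6 mm (males, hermaphrodites) and 4.23 to 5.13 and 5.75 to 6.89 at 7–12 mm. The direction of the larger male to larger hermaphrodite difference also held in all 20, but the call was lost with only the libraries compared (-1.72), without both libraries with the most unaligned reads (-1.70) and in 7 of the fits that left out 1 library, which ranged from -2.16 to -1.02. The male fall with size lost its call in 5, at -1.92 without both those libraries and over a range of -2.27 to -1.78 when 1 library was left out. The uncalled change with size in females turned to -0.36 without replicate 1 of the small female buds (range -0.36 to 3.24), and could not be fitted with only the libraries compared because the filter removed the gene. That in hermaphrodites turned to 0.28 without replicate 2 of the larger buds (-0.85 to 0.28). The hermaphrodite to female interaction turned to 0.19 without replicate 1 of the small female buds (-3.41 to 0.19). In the fit with a replicate block, the larger male to hermaphrodite difference was -1.77 (edgeR adjusted p = 0.00328) and the male fall -2.04 (edgeR adjusted p = 0.00198), and no SPL/NZZ call changed.

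On raw library totals the mean of small male buds was 12.1 CPM in place of 11.2. Of the 5 nearest genes over 12 libraries, 3 were shared with a prior count of 0.5 and 2 by Spearman's rho. Over the 8 libraries 0 were shared by Spearman's rho and 3 after the means of each replicate number were removed. For the called differences of the other pathway genes, 112 of 978 alternative values lost their call and 0 turned direction. Of the pathway genes called between larger males and hermaphrodites, 4 as reported, 1 to 5 were called across the alternatives. Over all genes, the male to hermaphrodite interaction count, 99, ranged from 0 to 443 (the block), and that of hermaphrodites with females, 463, from 28 to 847. Counts of genes called by size ranged from 104 to 795 in females (376 as reported), 621 to 1403 in males (1100) and 172 to 850 in hermaphrodites (589). The male to female interaction count, 1040, ranged from 496 to 1472, and male to hermaphrodite at 1–6 mm, 888, from 414 to 1132. The female libraries held 0 or 1 SPL/NZZ count each, so the fitted female values rest on single reads.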
